A study of Mus musculus with 15 samples.

Results

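The mitochondrial genome of the mouse was followed through brain microvessels of mice with glioblastoma. Its genes were taken as every gene whose symbol in the deposited expression table starts with mt-, which gave 16 of 27174 genes: 7 protein genes, 2 ribosomal RNA (rRNA) genes and 7 transfer RNA (tRNA) genes. The GENCODE M21 annotation lists 37 genes on this genome (13 protein, 2 rRNA and 22 tRNA genes), and all 16 had the same coordinates there. The other protein genes, mt-Co2, mt-Atp8, mt-Atp6, mt-Co3, mt-Nd3 and mt-Nd4l, were not analysed here. Of the 16 genes, 12 passed a filter on low values, 3 or more libraries with a score of 10 or higher, and were tested, and 4 tRNA genes did not.

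Total RNA of microvessels from adult wild-type BL6 mice was sequenced in 15 libraries, each a pool of 3 mice, in 5 groups of 3 biological replicates as labelled. Triple therapy was aflibercept, a decoy receptor for vascular endothelial growth factor, with AMG386, a peptibody against angiopoietins, and an antibody to PD-1. Dual therapy was aflibercept with AMG386. Untreated tumour denotes tumour-bearing tissue of mice that received control IgG, and contralateral the hemisphere without tumour of mice that received it. These 4 groups were sampled 21 days after tumour cells were transplanted, and the sources used here do not name the transplanted line. Sham mice were the remaining controls.

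Mitochondrial DNA is a small circle present in many copies per cell. Both of its strands are transcribed into long precursors, which are cut mainly at the tRNAs that lie between the longer genes, so that most genes of a strand start from a shared transcript and reach their own levels through processing and decay. Its protein genes encode core subunits of the respiratory chain, while the other subunits, the mitochondrial ribosomal proteins and all enzymes of mitochondrial transcription come from the nucleus. Brain capillary endothelium is known as a cell type rich in mitochondria.

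The tRNA genes with the highest levels lie on the minus strand of chrM (GRCm38), as does mt-Nd6, while the other protein genes and both rRNA genes lie on the plus strand. Their sequences are shown because they are the only tRNA genes that passed the filter, with the anticodon in capitals: mt-Tp for proline at chrM:15356-15422, mt-Tc for cysteine at chrM:5192-5257 and mt-Tn for asparagine at chrM:5089-5159, all read on the minus strand from the GENCODE M21 transcripts.
mt-Tp: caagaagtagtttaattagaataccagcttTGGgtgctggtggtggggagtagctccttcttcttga
mt-Tc: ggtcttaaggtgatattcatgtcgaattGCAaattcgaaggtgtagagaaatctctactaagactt
mt-Tn: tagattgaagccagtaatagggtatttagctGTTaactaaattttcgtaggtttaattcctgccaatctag

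The genes mt-Nd5 (chrM:11742-13565, plus strand) and mt-Nd6 (chrM:13552-14070, minus strand) run towards each other and overlap. The last 40 bases of mt-Nd5 are shown, chrM:13526-13565 on the plus strand, with the 14 shared bases in capitals.
mt-Nd5 end: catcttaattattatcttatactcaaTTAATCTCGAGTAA
The strand setting of the counting was not given in the sources used here, and reads from these genes inside the shared bases cannot be told apart without it. If strands were not separated, scores of mt-Nd6 and of the minus-strand tRNA genes may also hold reads from the plus strand.

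Every value below is a score, the deposited normalised value rounded to whole numbers, and not a read count. Library totals were 11134670 to 15799111 score units, and the estimated depth was 6365896 to 18324509 reads. Untreated tumour replicate 2 stood apart: it had the highest total and the highest score of all 15 libraries in each of the 12 tested genes, so results against untreated tumour are given with and without it. Endothelial cells were followed with 15 markers, none at 0 in all libraries. Their summed score was 113199 to 147068 after triple therapy, 127218 to 162675 after dual therapy and 85232 to 124108 in untreated tumour. It was 143564 to 173640 in contralateral tissue and 135693 to 140073 in sham. These sums cannot test the label of microvessels, because no library of other tissue was set beside them. Markers of dividing cells and of other cell types were present as well. The 8 proliferation markers summed to 1387 to 1769 after triple therapy, 995 to 1643 after dual therapy, 5594 to 12739 in untreated tumour, 104 to 257 in contralateral tissue and 169 to 210 in sham. The 9 pericyte markers summed to 52124 to 68571, 46717 to 58244, 23878 to 28634, 53570 to 68492 and 61845 to 63063 in the same order of groups, and the 12 neuronal markers to 9195 to 13412, 6271 to 11283, 2700 to 4855, 13951 to 16718 and 20897 to 28950. In that order, the 8 astrocyte markers summed to 35988 to 43708, 18811 to 48618, 16428 to 17823, 36303 to 46544 and 49480 to 73298. The 6 ependyma and choroid plexus markers summed to 26368 to 79080, 16312 to 31814, 15208 to 51229, 40530 to 83671 and 22673 to 24776. In these bulk samples, fewer cells of a type and less RNA per cell cannot be told apart.

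Both rRNAs were most abundant in untreated tumour. The gene mt-Rnr1 (ENSMUSG00000064337, chrM:70-1024) encodes the rRNA of the small mitochondrial ribosomal subunit. Its scores were 77871, 62623 and 93819 after triple therapy, 122820, 121150 and 90328 after dual therapy, and 254572, 309876 and 159832 in untreated tumour. In contralateral tissue mt-Rnr1 had 96223, 92662 and 120686, and in sham 68877, 104070 and 103349. All 3 untreated tumour libraries lay above all 12 other libraries, and the other 4 groups overlapped in part. The gene mt-Rnr2 (ENSMUSG00000064339, chrM:1094-2675) encodes the rRNA of the large subunit and had the highest score of the mitochondrial genes in every library: 1346960, 1001005 and 1343444 after triple therapy, 1774952, 2088602 and 1720178 after dual therapy, and 2543049, 4933467 and 2468813 in untreated tumour. Contralateral libraries had 1677768, 1792410 and 1757197, and sham libraries 1404427, 1306981 and 1373482. Untreated tumour again lay above all 12 other libraries. Triple therapy lay below dual therapy and below contralateral tissue without overlap, and its range overlapped that of sham. No source used here says whether rRNA was removed before library preparation, so the level of rRNA against other RNA describes these libraries and not the cells.

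**Figure D1:**
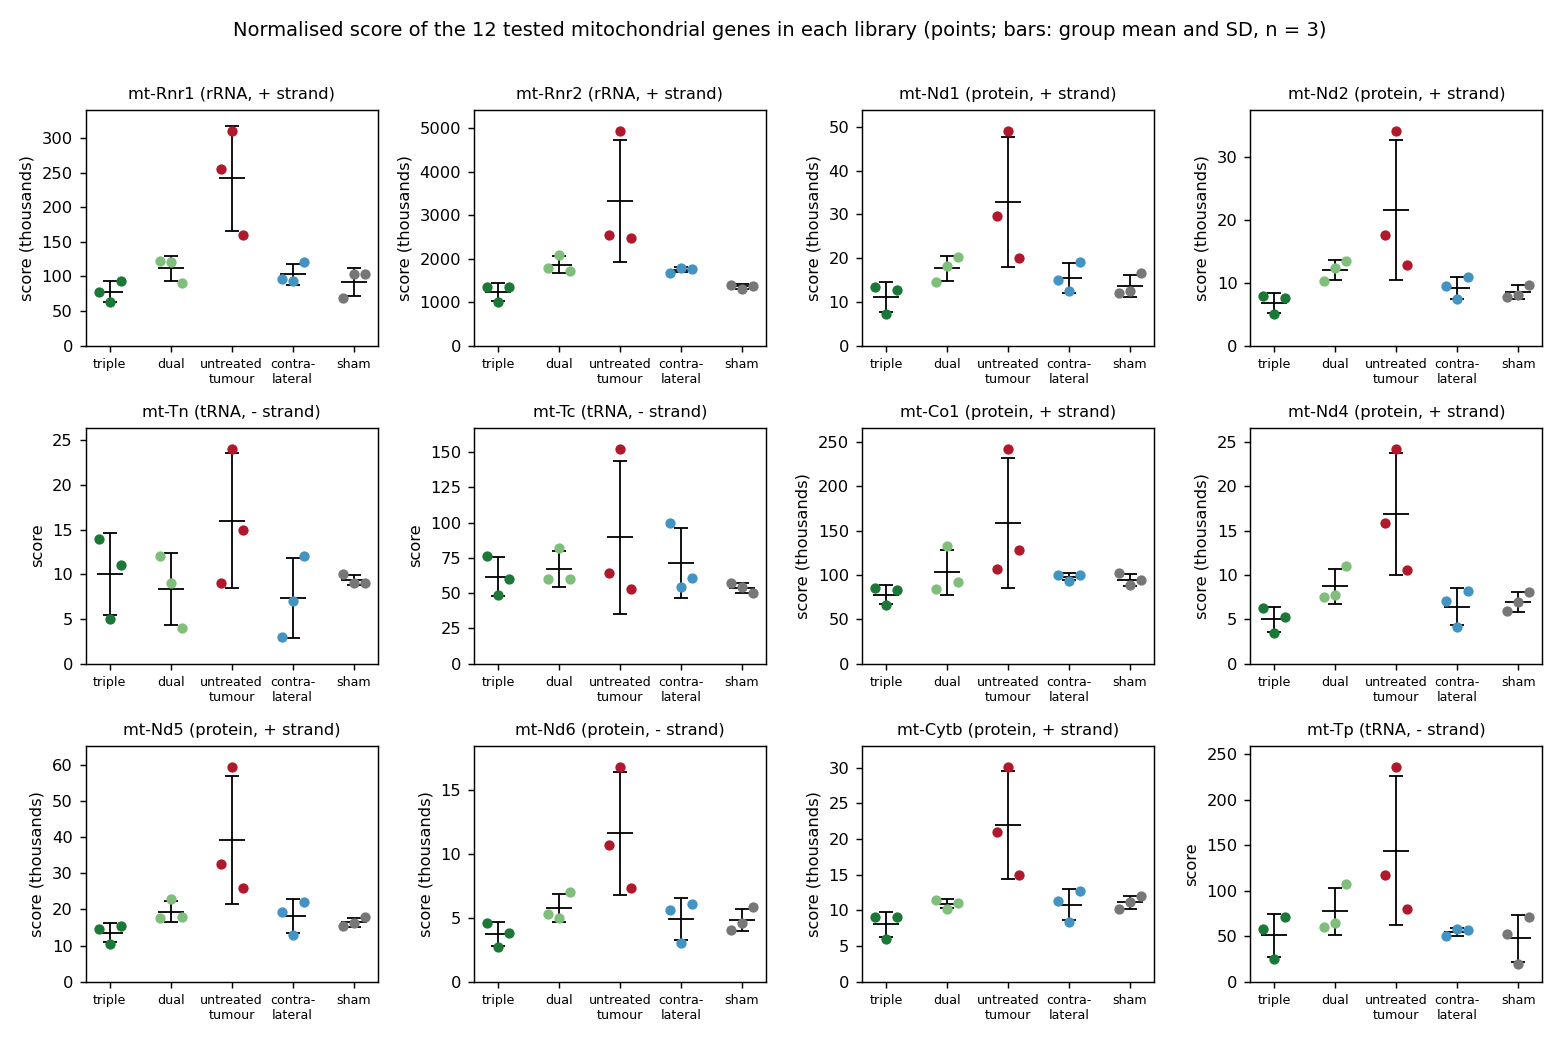
Normalised score (y axis, linear from 0, scaled as each axis states) of the 12 tested mitochondrial genes in each of 15 libraries, by group (x axis), with points for libraries and bars for group mean and SD. Untreated tumour replicate 2 is the highest point in all 12 panels, and for mt-Rnr1, mt-Rnr2, mt-Nd5, mt-Nd6 and mt-Cytb all 3 untreated tumour libraries lie above the other 12.

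The genes mt-Nd1, mt-Nd2, mt-Nd4, mt-Nd5 and mt-Nd6 encode subunits of complex I, the NADH dehydrogenase through which electrons enter the respiratory chain. The gene mt-Nd5 (chrM:11742-13565), a subunit of the proton-pumping membrane arm, had 14538, 10509 and 15432 after triple therapy, 17655, 22744 and 17840 after dual therapy, and 32559, 59301 and 25840 in untreated tumour. Contralateral tissue had 19261, 12901 and 22159, and sham 15288, 16148 and 17849. Every untreated tumour library exceeded every other library for mt-Nd5, and triple therapy lay below dual therapy without overlap. The minus-strand gene mt-Nd6, another membrane-arm subunit, had 4641, 2720 and 3826 after triple therapy, 5335, 5019 and 7037 after dual therapy, and 10750, 16812 and 7340 in untreated tumour. It had 5640, 3031 and 6087 in contralateral tissue and 4084, 4594 and 5818 in sham. The order of the group means was the one seen for mt-Nd5. The genes lie on opposite strands, but with the strand setting unknown, mt-Nd6 scores may hold plus-strand reads. The ratio of mt-Nd6 to mt-Nd5 scores averaged 0.275 ± 0.0384 after triple therapy, 0.306 ± 0.0869 after dual therapy, 0.299 ± 0.0268 in untreated tumour, 0.267 ± 0.0296 in contralateral tissue and 0.293 ± 0.0302 in sham (SD, n = 3 each).

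The membrane-arm subunits mt-Nd1, mt-Nd2 and mt-Nd4 behaved alike, with 1 dual therapy library inside the untreated range. The gene mt-Nd1 (chrM:2751-3707) had 13453, 7232 and 12748 after triple therapy, 14502, 18288 and 20224 after dual therapy, 29591, 49050 and 19969 in untreated tumour, 14928, 12397 and 19059 in contralateral tissue and 11986, 12596 and 16577 in sham. The gene mt-Nd2 (chrM:3914-4951) had 7883, 4964 and 7590 after triple therapy, 10205, 12385 and 13378 after dual therapy, 17524, 34049 and 12851 in untreated tumour, 9401, 7321 and 10810 in contralateral tissue and 7667, 8083 and 9681 in sham. The gene mt-Nd4 (chrM:10167-11544) had 6242, 3462 and 5282 after triple therapy, 7492, 7728 and 11009 after dual therapy, 15816, 24205 and 10611 in untreated tumour, 7018, 4089 and 8148 in contralateral tissue and 5913, 6945 and 8139 in sham. For all 3 genes, dual therapy replicate 3 exceeded untreated tumour replicate 3, and the lowest of the 3 triple therapy values was that of replicate 2.

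Complex III passes electrons from ubiquinol to cytochrome c, and mt-Cytb (chrM:14145-15288) encodes its cytochrome b subunit. Its scores were 9138, 6019 and 9004 after triple therapy, 11484, 10228 and 11088 after dual therapy, 21004, 30066 and 15015 in untreated tumour, 11320, 8383 and 12674 in contralateral tissue, and 10135, 11239 and 11969 in sham. Untreated tumour lay above the other 12 libraries, and the triple therapy libraries lay below both dual therapy and sham without overlap. Complex IV reduces oxygen, and mt-Co1 (chrM:5328-6872) encodes its catalytic subunit. It had 85155, 66262 and 82671 after triple therapy, 84195, 132463 and 92288 after dual therapy, and 106520, 242141 and 127881 in untreated tumour. Contralateral tissue had 100469, 93365 and 99939 and sham 101824, 88281 and 94491. Untreated tumour lay above contralateral tissue and sham without overlap, with replicate 1 nearest to them, and dual therapy replicate 2 lay inside the untreated range.

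Among tRNA genes, mt-Tp had 58, 25 and 71 after triple therapy, 60, 65 and 107 after dual therapy, 117, 236 and 80 in untreated tumour, 50, 58 and 57 in contralateral tissue, and 53, 20 and 71 in sham. Untreated tumour lay above triple therapy, contralateral tissue and sham without overlap, and dual therapy replicate 3 lay inside the untreated range. For mt-Tc the scores were 76, 49 and 60 after triple therapy, 60, 82 and 60 after dual therapy, 64, 152 and 53 in untreated tumour, 100, 54 and 61 in contralateral tissue, and 57, 54 and 50 in sham. The untreated tumour range of mt-Tc overlapped that of every other group, and its other 2 libraries lay no higher than 64. The scores of mt-Tn were 3 to 24 over all libraries and those of mt-Ta, the alanine tRNA gene, 1 to 11. The phenylalanine (mt-Tf), valine (mt-Tv) and leucine (mt-Tl1) tRNA genes on the plus strand never exceeded 6. A score worth 3 reads was 1.97 to 5.58 units depending on the library, so differences among these 4 untested genes were not detectable at this depth.

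Triple therapy was compared with untreated tumour to ask how the combined treatment acted on tumour vessels. All 7 protein genes, both rRNA genes and mt-Tp fell, to between 0.304 and 0.521 of the untreated level on the log2(score + 1) scale. The protein genes other than mt-Co1 lay close together, between -1.72 and -1.42. The largest fitted fall was that of mt-Nd4, with a log2 fold change of -1.72 ± 0.28 (SE, limma with Benjamini-Hochberg adjustment over all genes, adjusted p = 0.00016), and mt-Cytb fell with the smallest p (-1.42 ± 0.21, adjusted p = 6.06e-05). The rRNAs fell by a similar amount, mt-Rnr1 with -1.59 ± 0.25 (adjusted p = 0.000113) and mt-Rnr2 with -1.37 ± 0.43 (adjusted p = 0.0206). The smallest fall of a protein gene was that of mt-Co1, at -0.94 ± 0.25 (adjusted p = 0.0072). In all, 0 of the 12 tested members were called higher and 10 lower, against 17.2% of all 19668 tested genes called higher and 15% lower (32.2% in all), and the median log2 fold change was -1.46 in the 12 members and -0.02 over all genes. The tRNA genes mt-Tn (-0.63 ± 0.58, adjusted p = 0.435) and mt-Tc (-0.40 ± 0.34, adjusted p = 0.391) were not called, with 95% intervals of -1.84 to 0.58 and -1.10 to 0.31. Without untreated tumour replicate 2, 9 were called lower, with log2 fold changes of -1.42 for mt-Nd4, -0.59 for mt-Co1 and -1.03 for mt-Tp, which lost its call (limma adjusted p = 0.0986). The mt-Rnr2 call was lost without triple therapy replicate 1 (-1.44, adjusted p = 0.0566) and without triple therapy replicate 2 (-1.22, adjusted p = 0.0785), and mt-Tp also lost its call without the second of these libraries (-1.01, adjusted p = 0.115). Under quantile normalisation mt-Rnr1 (-0.64, adjusted p = 0.0954), mt-Co1 (-0.14, adjusted p = 0.564) and mt-Rnr2 were not called.

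Beside this comparison, all 8 proliferation markers were lower after triple therapy and 8 of 9 pericyte, 11 of 12 neuronal, 6 of 7 erythrocyte, 4 of 6 smooth muscle and 5 of 15 endothelial markers higher (2 endothelial markers lower). Of 6 oligodendrocyte precursor markers 4 were lower and 1 higher. The summed scores of the proliferation, pericyte, neuronal and endothelial lists are those given above. Their part in the mitochondrial differences was not tested.

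Dual therapy was set against the same untreated libraries to ask what the anti-angiogenic agents did alone. All protein genes but mt-Co1 fell, and so did mt-Rnr1, with log2 fold changes of -1.08 to -0.73. The median over the 12 members was -0.84, against -0.01 over all genes. The largest fall was that of mt-Rnr1, to 111433 ± 18296 after dual therapy, against 241427 ± 75881 in untreated tumour (SD, n = 3), a log2 fold change of -1.08 ± 0.25 (limma adjusted p = 0.00501). Next came mt-Cytb (-0.95 ± 0.21, adjusted p = 0.0033), mt-Nd6 (-0.94 ± 0.28, adjusted p = 0.0202) and mt-Nd5 (-0.93 ± 0.24, adjusted p = 0.0105). The other called genes were mt-Nd4 (-0.89), mt-Nd1 (-0.81) and mt-Nd2 (-0.73 ± 0.26, adjusted p = 0.0497), whose groups overlapped. Not called were mt-Co1 (-0.56 ± 0.25, adjusted p = 0.114), mt-Rnr2 (-0.76 ± 0.43, adjusted p = 0.221), mt-Tp (-0.79 ± 0.45, adjusted p = 0.227), mt-Tn (-0.87 ± 0.58, adjusted p = 0.303) and mt-Tc (-0.27 ± 0.34, adjusted p = 0.614). Thus 0 of 12 were called higher and 7 lower, where 12.1% of all genes were called higher and 10.2% lower (22.3% in all). This count depended on single libraries: it was 3 without untreated tumour replicate 2, 3 without dual therapy replicate 1 and 3 without dual therapy replicate 2. In each of these fits the calls lost were mt-Nd1, mt-Nd2, mt-Nd4 and mt-Nd6, with log2 fold changes of -0.47, -0.33, -0.59 and -0.63 without the untreated library. Without untreated tumour replicate 1, mt-Nd1 (-0.84), mt-Nd2 (-0.81) and mt-Nd4 (-0.90) lost their calls and mt-Co1 gained one (-0.80, limma adjusted p = 0.0294), and mt-Nd2 lost its call without dual therapy replicate 3 (-0.81, adjusted p = 0.065). Quality weights ended the calls of mt-Rnr1 (-0.74, adjusted p = 0.0501), mt-Nd1, mt-Nd2, mt-Nd4 and mt-Nd6, and quantile normalisation that of mt-Rnr1 (-0.50, adjusted p = 0.218). Proliferation markers were lower in 8 of 8 and oligodendrocyte precursor markers in 4 of 6, while pericyte markers were higher in 6 of 9, neuronal markers in 10 of 12, erythrocyte markers in 7 of 7 and endothelial markers in 5 of 15. Their part was not tested.

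The addition of the PD-1 antibody was examined by setting triple against dual therapy. Here 11 of 12 members had lower fitted levels after triple therapy, but none passed the test over all genes. The lowest fold changes were those of mt-Nd2, mt-Nd4 and mt-Nd1 (-0.70), none of them called: mt-Nd2 averaged 6812 ± 1607 after triple therapy and 11989 ± 1623 after dual therapy (SD, n = 3), a log2 fold change of -0.84 ± 0.26 (limma adjusted p = 0.134, 95% interval -1.38 to -0.30), and mt-Nd4 had -0.83 ± 0.28 (adjusted p = 0.166). The cytochrome b gene mt-Cytb had -0.46 ± 0.21 (adjusted p = 0.309) and mt-Rnr2 -0.61 ± 0.43 (adjusted p = 0.549). In the limma fit 0 members were called in either direction, against 0.524% of all genes called higher and 0.346% lower (0.869% in all). Of the 12 members, 6 had an unadjusted limma p below 0.05, a count not set against that of all genes. The median was -0.57 over the members and 0.01 over all genes. No other setting run, leaving out single libraries included, brought a call. Beside this, 2 of 12 neuronal markers, 1 of 6 oligodendrocyte precursor markers and 1 of 9 monocyte and macrophage markers were higher after triple therapy, and the proliferation sums of these groups overlapped.

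Untreated tumour was compared with contralateral tissue and with sham to ask how the tumour changed its vessels. Both comparisons share the untreated libraries, and the treatment comparisons share them too, so the opposite signs are not independent. Over contralateral tissue, mt-Nd4 rose most, to 16877 ± 6859 in untreated tumour, against 6418 ± 2095 in contralateral tissue (SD, n = 3), a log2 fold change of 1.37 ± 0.28 (limma adjusted p = 0.000638). All other protein genes but mt-Co1 rose by 0.99 (mt-Cytb, adjusted p = 0.000814) to 1.22 (mt-Nd6, adjusted p = 0.00151), together with mt-Rnr1 (1.18 ± 0.25, adjusted p = 0.000873) and mt-Tp (1.23 ± 0.45, adjusted p = 0.0355). In this comparison 8 of 12 members were called higher and 0 lower, against 21.1% of all genes higher and 21.4% lower (42.5% in all), with a median of 1.07 over the members and 0.01 over all genes. Although their groups did not overlap, mt-Rnr2 (0.85 ± 0.43, adjusted p = 0.121) and mt-Co1 (0.61 ± 0.25, adjusted p = 0.0573) were not called. For mt-Rnr2 the residual SD on the log2 scale was 0.285, against 0.715 expected by the trend for genes of its level, and the moderated test used 0.526. A fit without this trend, added after the data were seen, called mt-Rnr2 (adjusted p = 0.0113). Planned scalings called it too, to library totals (0.70, limma adjusted p = 0.0291) and to the total outside the mitochondrial genome (0.92, adjusted p = 0.0283). The latter scaling also called mt-Co1 (0.67, adjusted p = 0.0204). The fit without untreated tumour replicate 2 called 7 members higher, with 1.07 for mt-Nd4 and 0.25 for mt-Co1, and mt-Tp lost its call (0.81, adjusted p = 0.175). The mt-Tp call was also lost without untreated tumour replicate 1 and without each contralateral library, with log2 fold changes of 1.17 to 1.31 and adjusted p of 0.0568 to 0.0905. Without untreated tumour replicate 1, mt-Rnr2 (1.0, adjusted p = 0.0492) and mt-Co1 (0.85, adjusted p = 0.00905) were called. With array quality weights mt-Nd1 lost its call (0.58, adjusted p = 0.0623), and under quantile normalisation mt-Rnr1 did (0.06, adjusted p = 0.889).

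Over sham, the same protein genes and mt-Co1 rose, with both rRNAs and mt-Tp. The fold changes were 1.36 ± 0.25 for mt-Rnr1 (limma adjusted p = 0.000195), 1.21 ± 0.43 for mt-Rnr2 (adjusted p = 0.0277), 1.17 ± 0.24 for mt-Nd5 (adjusted p = 0.000689) and 1.60 ± 0.45 for mt-Tp (adjusted p = 0.00737). Cytochrome c oxidase subunit gene mt-Co1 averaged 158847 ± 72921 in untreated tumour and 94865 ± 6779 in sham (SD, n = 3), a log2 fold change of 0.65 ± 0.25 (adjusted p = 0.0382), whose sign turned under quantile normalisation (-0.19, adjusted p = 0.363). That setting also ended the calls of mt-Rnr1 (0.15, adjusted p = 0.696) and mt-Rnr2. Over sham 10 of 12 were called higher and 0 lower, against 23.3% of all genes in each direction (46.6% in all), with a median of 1.19 over the members and 0.03 over all genes. Without untreated tumour replicate 2, 8 were called, and mt-Co1 (0.30, adjusted p = 0.218) and mt-Rnr2 (0.88, adjusted p = 0.0533) were not. Both also lost their calls without any 1 of the 3 sham libraries, with 0.60 to 0.70 for mt-Co1 (adjusted p = 0.0589 to 0.108) and 1.18 to 1.23 for mt-Rnr2 (adjusted p = 0.0603 to 0.0762), and mt-Tp lost its call without sham replicate 2 (1.07, adjusted p = 0.0598). In both comparisons 8 of 8 proliferation markers were higher, 12 of 13 T and NK cell markers were higher and most pericyte markers lower (8 of 9 over contralateral tissue and 7 of 9 over sham). Neuronal markers were lower in 11 of 12 over contralateral tissue and in 12 of 12 over sham, and erythrocyte markers in 0 and in 7 of 7. Oligodendrocyte precursor markers were higher in 5 and in 4 of 6, with 1 lower in each comparison. Of 15 endothelial markers, 1 was higher and 6 were lower in each comparison. The 13 T and NK cell markers summed to 1410 to 1562 in untreated tumour, 80 to 183 in contralateral tissue and 63 to 114 in sham. Their part in the mitochondrial differences was not tested.

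Contralateral tissue was compared with sham to ask whether the hemisphere without tumour differed. In the limma fit 0 of 12 members were called in either direction, where 0.254% of all genes were called higher and 0.178% lower (0.432% in all), and 0 members had an unadjusted p below 0.05. Adjusted p ran from 0.753 to 0.992, and the median fold change was 0.11 over the members and -0.01 over all genes. The 95% interval was -0.44 to 0.64 for mt-Nd2 and -0.49 to 0.37 for mt-Cytb, which are the changes these libraries leave possible. Only mt-Rnr2 had groups that did not overlap (0.36 ± 0.43, limma adjusted p = 0.827), with all 3 contralateral libraries higher, and overlap was not counted over all genes. Across all 5 groups, the limma F-test called 9 of 12 members, against 43.5% of all genes. The genes not called were mt-Rnr2 (adjusted p = 0.0875), mt-Tn (adjusted p = 0.524) and mt-Tc (adjusted p = 0.613).

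**Figure D2:**
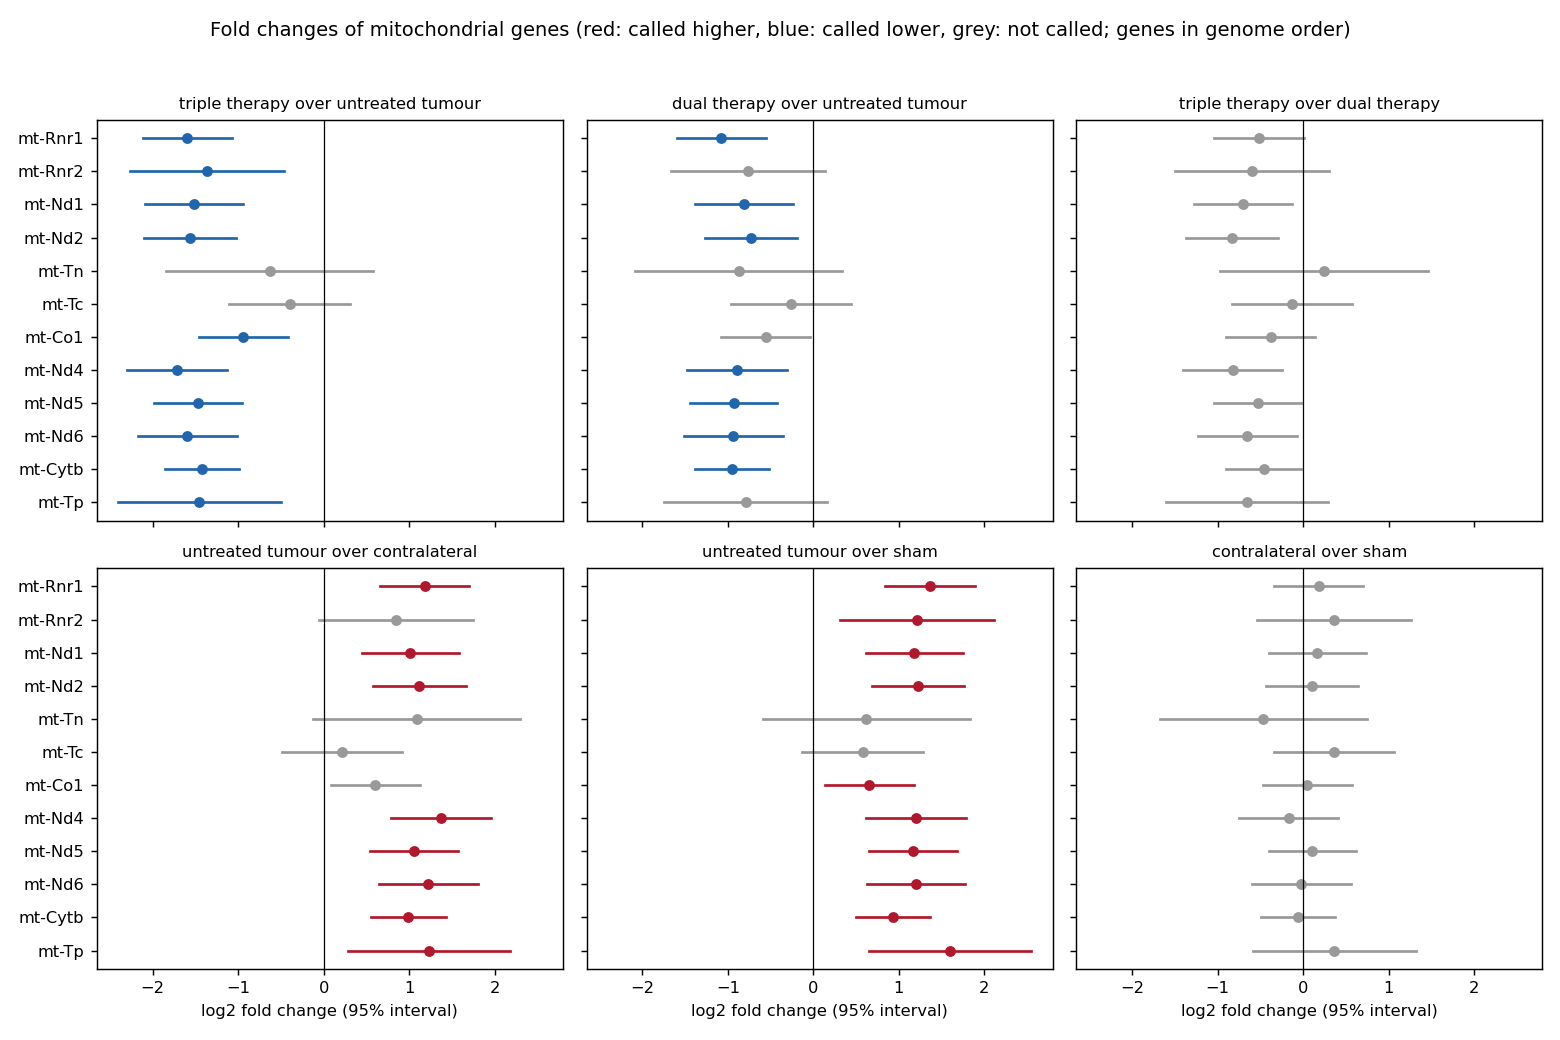
Log2 fold change (x axis) with its 95% interval for the 12 tested mitochondrial genes (y axis, genome order) in 6 comparisons, with blue for called lower, red for called higher and grey for not called. Intervals against untreated tumour lie left of 0 for 10 of 12 genes after triple therapy, and intervals of contralateral tissue over sham all span 0.

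As shares of a library, rRNA genes took 12.2%, 9.55% and 12% of the score after triple therapy, 15.9%, 17.4% and 15.2% after dual therapy, 22.4%, 33.2% and 21.5% in untreated tumour, 14.5%, 15.5% and 15.8% in contralateral tissue and 12.4%, 11.9% and 12.2% in sham. The summed protein genes took 1.21%, 0.909% and 1.14% after triple therapy, 1.26%, 1.64% and 1.45% after dual therapy, 1.87%, 2.88% and 1.79% in untreated tumour, 1.37%, 1.16% and 1.5% in contralateral tissue and 1.32%, 1.25% and 1.36% in sham. Untreated tumour exceeded the other groups in both shares without overlap, also with replicate 2 left aside. The other genes together summed to 9395438 to 10480247 units in every library, a narrower range than that of the library totals.

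The ratio of rRNA to protein-gene score varied far less than either share. It was 10.1, 10.5 and 10.5 after triple therapy, 12.6, 10.6 and 10.5 after dual therapy, 12, 11.5 and 12 in untreated tumour, 10.6, 13.3 and 10.5 in contralateral tissue, and 9.39, 9.54 and 8.98 in sham. Sham libraries lay below all others and triple therapy lay below untreated tumour, while dual therapy and contralateral tissue each held 1 library above the untreated range. No test was made of these ratios. The ratio of mt-Rnr2 to mt-Rnr1 was looser, from 9.99 in untreated tumour replicate 1 to 20.4 in sham replicate 1, with group means of 15.9 ± 1.49 after triple therapy, 16.9 ± 2.31 after dual therapy, 13.8 ± 3.30 in untreated tumour, 17.1 ± 2.41 in contralateral tissue and 15.4 ± 4.33 in sham (SD, n = 3 each). Those group means differed by less than the spread within the sham group.

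**Figure D3:**
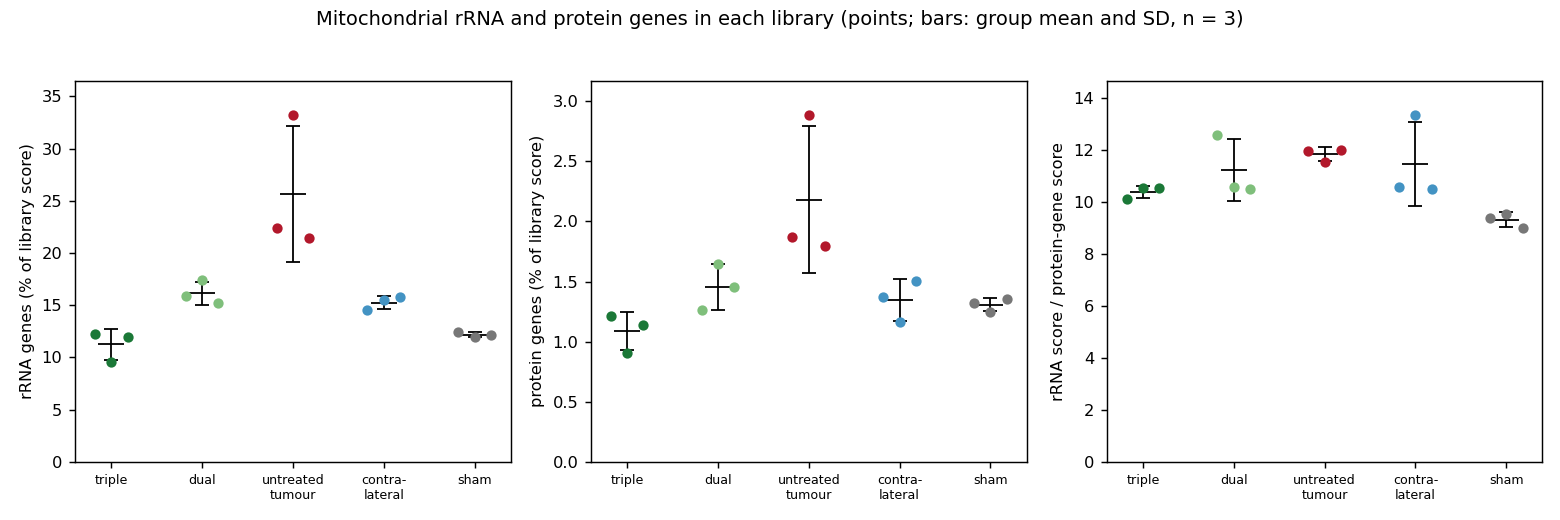
Share of the library score in mitochondrial rRNA genes (left, percent) and protein genes (middle, percent), and the ratio of the summed scores (right), by group on the x axis, with points for libraries and bars for mean and SD. Both shares are highest in untreated tumour (21.5% to 33.2% and 1.79% to 2.88%), and the ratio is lowest in sham (8.98 to 9.54). With mt-Co1 left out of the protein genes (not drawn), sham overlaps every other group in this ratio.

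Within the protein genes, the make-up shifted with mt-Co1. This gene took 62.1% ± 2.91 of the summed score of 7 protein genes after triple therapy, 57.5% ± 5.24 after dual therapy, 52.3% ± 6.39 in untreated tumour, 60.5% ± 5.10 in contralateral tissue and 60.7% ± 3.83 in sham (SD, n = 3 each). The lowest library was untreated tumour replicate 1 (45.6%) and the highest contralateral replicate 2 (66.0%). Triple therapy lay above untreated tumour without overlap, and the other groups overlapped untreated tumour. In the same libraries mt-Nd5 took 10.7% ± 0.552, 11% ± 0.695, 12.9% ± 1.1, 11% ± 1.69 and 10.5% ± 0.659 of the sum in the same order of groups. Leaving mt-Co1 out, the sum of the other 6 protein genes was 48228 ± 11581 after triple therapy, 74547 ± 7133 after dual therapy, 144118 ± 62656 in untreated tumour, 64876 ± 15583 in contralateral tissue and 61570 ± 7671 in sham.

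**Figure D4:**
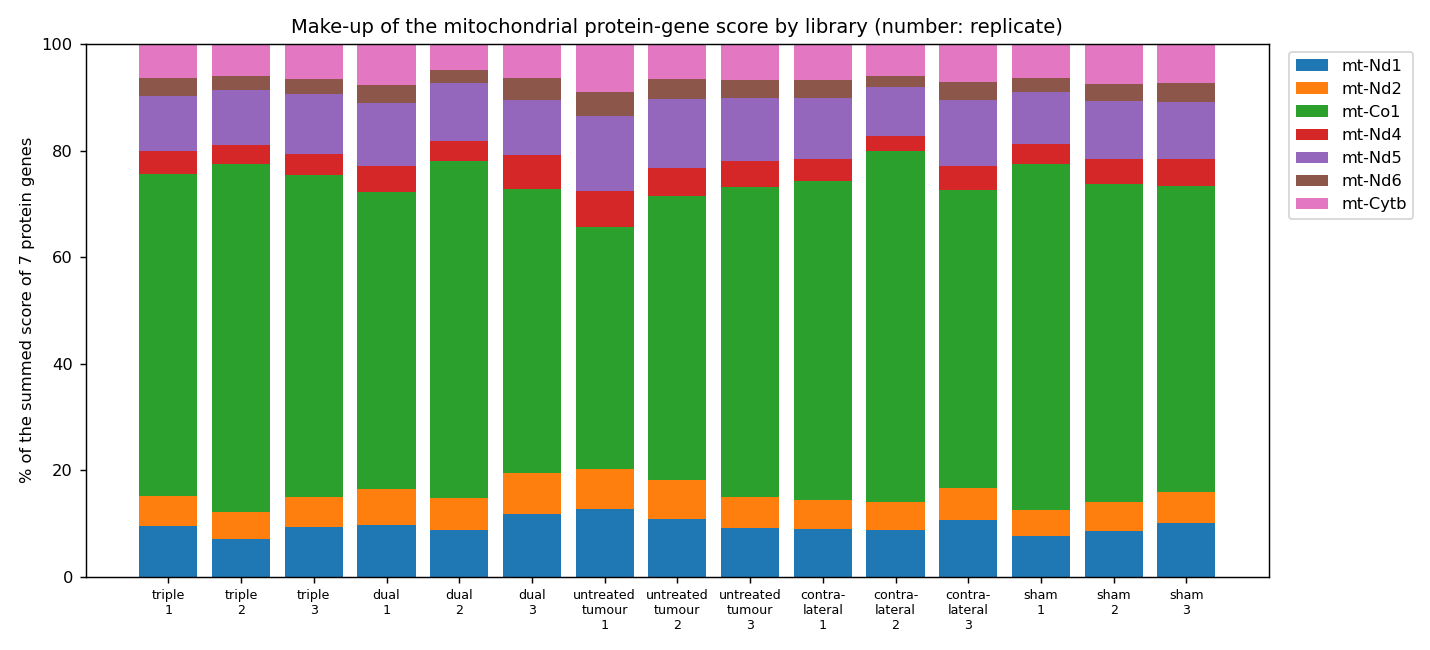
Percent of the summed score of the 7 mitochondrial protein genes held by each gene (y axis, stacked from 0 to 100) in each library (x axis, group and replicate number). The share of mt-Co1 runs from 45.6% in untreated tumour replicate 1 to 66.0% in contralateral replicate 2.

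Levels of different genes are compared here per kilobase of gene, whereas the ratios and shares above used scores not scaled by gene length. In untreated tumour, mt-Rnr2 had 2095518 ± 886239 score units per kilobase, mt-Rnr1 252803 ± 79456, mt-Co1 102814 ± 47198 and mt-Nd1 34347 ± 15481 (SD, n = 3). By mean, mt-Nd6 (22416 ± 9244), mt-Nd5 (21510 ± 9704), mt-Nd2 (20689 ± 10730) and mt-Cytb (19256 ± 6624) came next, followed by mt-Nd4 with 12248 ± 4977. These SDs are between libraries, and no test compared the genes with each other. In sham the same 4 genes stood at the top (860702 ± 31474 for mt-Rnr2, 96438 ± 21062 for mt-Rnr1, 61402 ± 4388 for mt-Co1 and 14336 ± 2605 for mt-Nd1 per kilobase), and mt-Nd4 (5079 ± 808) was again the lowest of the protein genes. Sequence shared with nuclear genes bears on 2 of these levels, because the reads of a window found elsewhere in the genome may be dropped or split. Of all windows of 50 bases, 51.1% in mt-Co1 and 62.2% in mt-Nd4 also occur exactly in another GENCODE M21 transcript, against 8.19% in mt-Nd2, 7.61% in mt-Nd5, 1.04% in mt-Rnr2 and 0 in the other tested members. This sharing is the same in every library, and the sources used here do not say how shared reads were counted.

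Part of the sharing is with nuclear copies of mitochondrial DNA on chromosome 1, annotated as unprocessed pseudogenes. There, Gm28439 equals mt-Nd4 over 876 bases with 0 differences, and Gm29216 matches mt-Co1 over 492 bases with 6. Next to them, Gm28438 matches mt-Nd3 and Gm10222 matches mt-Nd4l. Over 294 bases Gm10222 has 0 differences, and over 345 bases Gm28438 has 1, T3C, counted from 1 at the start of mt-Nd3. The first 32 bases of this pair are shown with the differing base in capitals, mt-Nd3 at chrM:9459-9490 on the plus strand and Gm28438 at chr1:24613088-24613119 on the minus strand (GRCm38).
mt-Nd3: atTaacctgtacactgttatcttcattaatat
Gm28438: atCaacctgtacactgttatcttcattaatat
Of these copies, Gm28438 and Gm10222 had scores in the table, and the others were not analysed here. The scores of Gm28438 were 25.3 ± 8.14 after triple therapy, 25 ± 13.1 after dual therapy, 43.0 ± 12.1 in untreated tumour, 21.3 ± 4.16 in contralateral tissue and 32.7 ± 6.51 in sham (SD, n = 3 each). Those of Gm10222 were 4.0 ± 1.0, 13.3 ± 4.51, 15.7 ± 11.6, 5.33 ± 4.51 and 5.0 ± 5.29 in the same order. Neither was called in any of the 6 comparisons.

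Genes of the nucleus that serve the same organelle were followed by list, and no test compared these lists with the mitochondrial genes. Shares called are read against all genes, of which 17.2% were higher and 15% lower after triple therapy against untreated tumour. The nuclear subunits of complex I, partners of the mt-Nd proteins, held 2 higher and 0 lower of 36 after triple therapy against untreated tumour (median log2 fold change -0.07), where Ndufv1, the subunit that binds NADH, rose to 453.0 ± 13.1, against 336.7 ± 40.1 in untreated tumour (SD, n = 3; 0.43 ± 0.13, limma adjusted p = 0.0135). Complex II is the one complex with no mitochondrially encoded subunit, and its catalytic subunit gene Sdha rose by 0.55 ± 0.11 (adjusted p = 0.000649), 1 of 4 called. In complex III, Uqcrc2 rose (0.34 ± 0.12, adjusted p = 0.0323) and Uqcrq fell (-0.57 ± 0.17, adjusted p = 0.0154), 2 of 9 called. Complex IV had 1 of 14 called, Cox4i2 (0.75 ± 0.28, adjusted p = 0.0441), an isoform of subunit 4, and complex V, the ATP synthase, 1 of 16, Atp5e (-0.44 ± 0.15, adjusted p = 0.0321). The shares called higher in complexes I, III, IV and V were 0 to 11.1%, below that of all genes, as were the shares called lower in all 5 complexes. Of 82 mitochondrial ribosomal protein genes 0 were higher and 4 lower (4.88%). Medians of the lists of complexes I to V lay between -0.23 and 0.08.

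Over contralateral tissue, untreated tumour showed 0 higher and 1 lower of 36 complex I genes (Ndufv1, -0.51 ± 0.13, limma adjusted p = 0.00303) and 0 higher and 1 lower of 4 complex II genes (Sdha, -0.56 ± 0.11, adjusted p = 0.00033). Complexes III, IV and V had 1 higher and 1 lower of 9, 1 higher of 14 and 2 higher of 16. Of 82 mitochondrial ribosomal protein genes 12 rose and 0 fell (14.6% higher, below the 21.1% of all genes; median 0.25), among them Mrps7 (0.74 ± 0.17, adjusted p = 0.00156). Genes for processing, decay and modification of mitochondrial RNA had 11 higher and 0 lower of 35 (31.4% higher; median 0.43). Among them Pnpt1, which encodes the mitochondrial polynucleotide phosphorylase, rose to 986.7 ± 205, against 459.7 ± 20.7 in contralateral tissue (SD, n = 3; 1.1 ± 0.14, adjusted p = 7.8e-06), and Elac2, which encodes the nuclease that trims tRNA 3′ ends, rose by 1.18 ± 0.16 (adjusted p = 1.05e-05). Beside the 21.1% of all genes called higher and the 21.4% called lower, the shares in complexes I, III, IV and V were below both, and RNA processing was the 1 list of nuclear genes with a share called higher above that of all genes.

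Machinery of mitochondrial DNA replication and transcription had 4 higher and 2 lower of 23 in untreated tumour over contralateral tissue (17.4% and 8.7%, both below the shares of all genes). The single-stranded DNA binding protein gene Ssbp1 rose to 397.0 ± 55.5, against 144.0 ± 5.29 in contralateral tissue (SD, n = 3; 1.45 ± 0.17, limma adjusted p = 2.83e-06), and the helicase gene Twnk rose by 1.04 ± 0.24 (adjusted p = 0.00179). Conversely Ppargc1a, a coactivator known to promote mitochondrial biogenesis, fell to 130.7 ± 29, against 297.3 ± 45.7 in contralateral tissue (-1.19 ± 0.16, adjusted p = 1.36e-05). After triple therapy against untreated tumour this list had 2 higher and 3 lower of 23, with Ssbp1 at -1.28 ± 0.17 (adjusted p = 2.78e-05) and Ppargc1a at 1.0 ± 0.16 (adjusted p = 0.00017), and RNA processing had 0 higher and 6 lower of 35 (17.1% lower, against 15% of all genes), with Tbrg4, which encodes a regulator of mitochondrial RNA stability, at -1.47 ± 0.24 (adjusted p = 0.000147). Dual therapy against untreated tumour gave 0 higher and 1 lower of 23 (Ssbp1, -0.49 ± 0.17, adjusted p = 0.0467) and 0 higher and 4 lower of 35. The shares called lower were 4.35% and 11.4%, where 10.2% of all genes were called lower and 12.1% higher in that comparison. Between triple and dual therapy, Ssbp1 alone of these lists of nuclear genes for mitochondrial proteins was called, at 162.7 ± 19.9 after triple therapy and 286.0 ± 73.3 after dual therapy (SD, n = 3; -0.79 ± 0.17, adjusted p = 0.0374). In contralateral tissue over sham the limma fit called 0 genes of these lists.

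**Figure D5:**
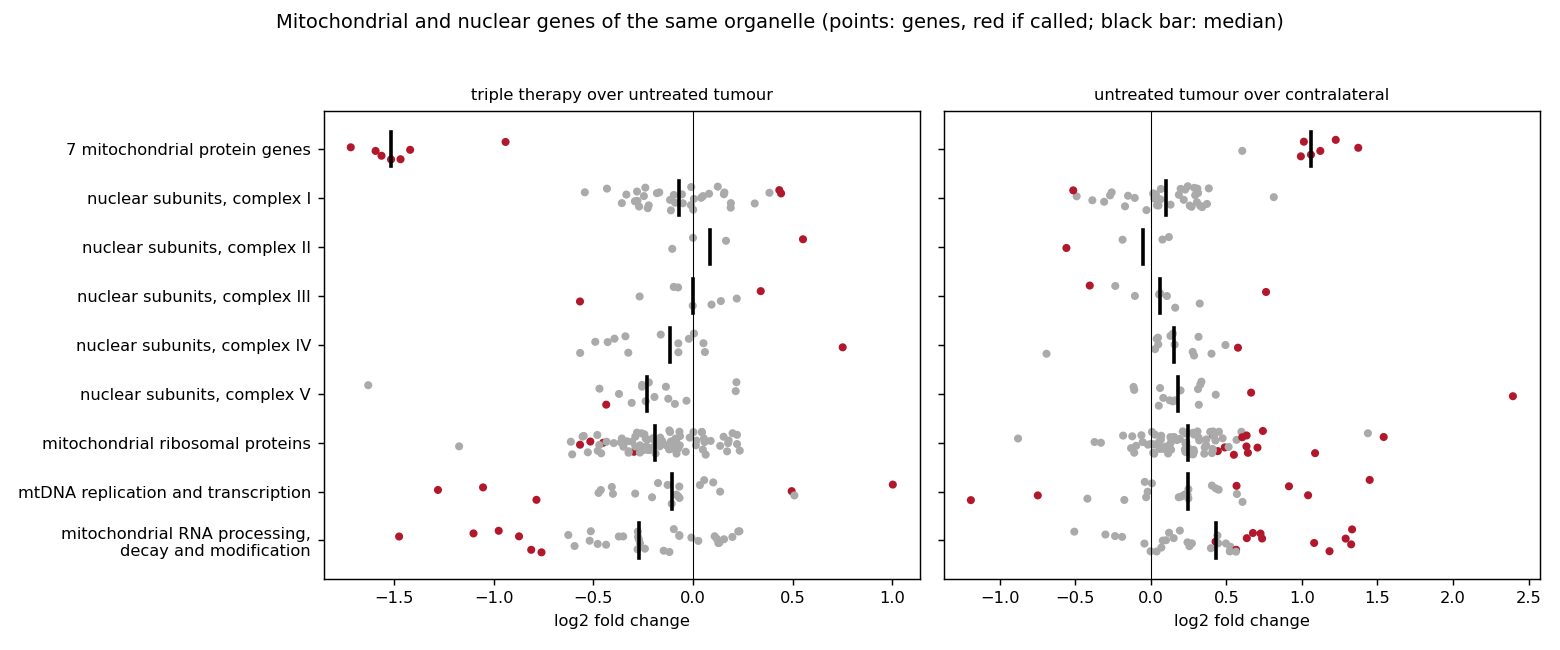
Log2 fold change (x axis) of the 7 mitochondrial protein genes and of 8 lists of nuclear genes for mitochondrial proteins (y axis), for triple therapy over untreated tumour (left) and untreated tumour over contralateral tissue (right). Points are genes, red where called, and black bars are medians: -1.52 and 1.06 for the mitochondrial genes, against -0.07 and 0.10 for complex I genes of the nucleus.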

How the data were processed

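The members and the gene lists were chosen with earlier results of these data known. Per the labels' protocols, Qiagen micro columns with DNase treatment gave the RNA, of which 100 ng entered a stranded total RNA kit of Clontech. Per the submitters' processing notes, STAR 2.4.0a, featureCounts 1.4.5-p1 and DESeq2 1.62 were used with GRCm38 (mm10). Their order and settings are not given in the sources used here. The deposited values are scores: normalised and rounded to whole numbers, as judged from the values, with 1 read worth 0.656 to 1.86 units as estimated from gaps between values (largest error on 10 simulated libraries 0.00583).

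Scores were transformed to log2(score + 1), which understates changes of low genes. Using limma 3.58.1 under R 4.3.3, a model with group means and a mean-variance trend was fitted to all 15 libraries, for the 19668 genes in which 3 or more libraries reached a score of 10. P-values were adjusted by Benjamini-Hochberg over all genes of a comparison, and genes were called below 0.05. This test was checked on simulated data. Replicates are pools of 3 mice, biological replicates per the labels. All mitochondrial members may be named; of each nuclear list, up to 3 called genes with the smallest adjusted p in a comparison are, or the 2 of highest mean where none was called, and the text names fewer. Cell type marker lists are given as counts and summed scores. Alternatives were another pseudocount, no filter, other scalings, quality weights, a replicate block, fits on 6 libraries and leaving out libraries. Sequences were read from GENCODE M21 (GRCm38).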

Additional observations from a re-analysis of the deposited data

How the results depend on the processing

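Across 72 member fold changes, 1080 refits kept their side of the threshold in 1003, lost the call in 68, gained one in 8 and turned the sign of a called value in 1. Of the 1003, 26 turned the sign of a value that was called in neither fit. The called value that turned was mt-Co1 in untreated tumour over sham under quantile normalisation (-0.1916, adjusted p = 0.363). That setting fixes the highest gene of every library at one value, which leaves mt-Rnr2 at a fold change of 0, and it ended every mt-Rnr1 call (-0.64 after triple and -0.50 after dual therapy against untreated tumour, 0.06 over contralateral tissue and 0.15 over sham), the mt-Co1 call after triple therapy (-0.14) and the mt-Tp call over contralateral tissue (1.05). Quality weights ended the mt-Nd1 call over contralateral tissue (0.58, limma adjusted p = 0.0623) and the mt-Tp calls there (0.84) and after triple therapy (-1.03). A pseudocount of 10 ended the mt-Rnr2 calls after triple therapy (limma adjusted p = 0.0582) and over sham (adjusted p = 0.074), as did fits on the 6 libraries compared (adjusted p = 0.125 and 0.203). The 7 members lower after dual therapy became 2 with quality weights and 4 without the mean-variance trend (added after the data were seen), and leaving out single libraries gave 3 to 7. Leaving out libraries gave 8 to 10 lower after triple therapy against untreated tumour, 7 to 9 higher in untreated tumour over contralateral tissue, 7 to 10 over sham and 7 to 9 in the F-test. The cause of these shifts was not tested.

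With mitochondrial rRNA left out of the total, the protein-gene share averaged 1.7341% after dual therapy, 3.0021% in untreated tumour, 1.587% in contralateral tissue and 1.4895% in sham, and 1.2249% after triple therapy. Leaving out single libraries moved the mean rRNA share of untreated tumour between 21.9% and 27.8% and its protein-gene share between 1.83% and 2.38%.

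Replicate numbers are shared by the groups. Deviations of same-numbered libraries from their group means correlated at -0.13 to 0.103 over 30 pairs (1 above 0.1), and those of differently numbered libraries at -0.0823 to 0.146 over 60. For the 3 same-numbered pairs of untreated tumour with contralateral tissue the range was -0.0553 to 0.0695. Whether these pairs came from the same mice was not established, and 3 pairs cannot settle it. With the replicate block the counts were 10 lower after triple therapy, 6 lower after dual therapy, 8 higher over contralateral tissue, 9 higher over sham and 8 in the F-test.

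Scaling to library totals put the median of all genes at 0.185 (log2) in triple therapy and 0.129 in dual therapy against untreated tumour, and at -0.136 and -0.134 in untreated tumour over contralateral tissue and sham. Calls then split into 5038 higher and 1694 lower, 3329 and 1177, 3013 and 5124, and 3356 and 5628, against 3390 and 2950, 2376 and 2001, 4147 and 4207, and 4577 and 4590. The members' counts were 10, 6, 8 and 10. Over contralateral tissue mt-Rnr2 gained a call (limma adjusted p = 0.0291) and mt-Tp lost its call (adjusted p = 0.0501). Scaling to the total outside the mitochondrial genome put the median at 0.127 over sham, with 10 members called. Over contralateral tissue it put the median at 0.073, and mt-Rnr2 and mt-Co1 gained calls. That scaling split the calls of triple over dual therapy into 45 higher and 48 lower (103 and 68 as deposited) and of contralateral tissue over sham into 57 and 25 (50 and 35), where quantile normalisation gave 46 and 11, with 0 members called. The 4 tRNA genes that did not pass the filter have no test in any setting with the filter, and the cause of their low scores was not tested.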
